A study of Drosophila melanogaster with 10 samples.

Results

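The subunits of the 3 nuclear RNA polymerases were followed in midguts of adult male Drosophila melanogaster whose enterocytes, the absorptive cells of the gut epithelium, overexpressed the peptidoglycan receptor PGRP-LE. All genes whose symbol begins with Polr1, Polr2 or Polr3 in the Ensembl annotation of BDGP6 were taken, which gave 30 of the 14292 genes with expression values. Flies of the overexpression group, mex>PGRP-LE, were hemizygous for Dredd D44 and carried mex-GAL4 over UAS-PGRP-LE, while those of the control group, mex>+, had the same Dredd allele with mex-GAL4 over a wild-type chromosome. Every fly was thus mutant for Dredd, the caspase of the IMD immune pathway, and carried the mex-GAL4 driver, which is active in enterocytes. The UAS transgene was present in 1 group alone, so its insertion and the receptor it encodes cannot be told apart. Each group had 5 biological replicates, RNA came from 20 whole midguts (whether per library or per genotype is not clear from the design text), and flies ate only yeast at 25 °C until day 7 after eclosion.

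RNA polymerase I transcribes the large ribosomal RNA precursor, polymerase II messenger RNAs, and polymerase III transfer RNAs, 5S ribosomal RNA and other small RNAs. Each enzyme has a pair of large catalytic subunits, a dimer related to the bacterial alpha subunits, a stalk, and a zinc-ribbon subunit near the active site. Polymerases I and III also have built-in subunits that resemble initiation factors of polymerase II, and 5 small subunits are common to all 3 enzymes. In fly guts, ribosome production is part of the growth of both progenitor cells and enterocytes.

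Transcript abundance was deposited as TPM, a relative unit already divided by transcript length and scaled to 1 total in every library, so levels of different genes are set side by side on that scale. Depth cannot be recovered from it, and no counting interval is given. Genes at 1 TPM or more numbered 8673 to 8767 per mex>PGRP-LE library and 8565 to 8618 per mex>+ library. PGRP-LE itself averaged 4530 ± 295 TPM in mex>PGRP-LE and 38.2 ± 2.33 TPM in mex>+ midguts (SD, n = 5 each), higher in the group labelled as overexpressing it. Dredd transcripts averaged 33.0 ± 2.15 TPM in mex>PGRP-LE and 23.2 ± 2.01 TPM in mex>+ midguts (SD, n = 5 each).

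Most polymerase subunit transcripts were moderately higher in mex>PGRP-LE midguts, and 5 of the 10 that did not rise were large catalytic subunits. All 30 genes met the level for testing. Of these, 20 rose (66.7%) and 2 fell (6.67%), whereas 40.1% of the 8722 genes tested rose and 22.8% fell. "Rose" and "fell" stand for genes with a Benjamini-Hochberg adjusted p below 0.05 in limma on log2(TPM + 1), and changes are mex>PGRP-LE minus mex>+ with their standard error (SE). The median change was 0.29 for the subunits and 0.09 for all tested genes. Groups did not overlap for 14 subunits (46.7%), close to the 48.3% of all tested genes. No subunit changed by 1 or more on the log2 scale, a size that 336 called genes reached upward and 297 downward. In these bulk samples, a change in the number of cells of a type and a change in RNA per cell cannot be told apart.

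Counted by enzyme, 3 of the 5 subunits particular to polymerase I rose and 0 fell, with a median log2 change of 0.21. Of the 10 particular to polymerase III, 6 rose and 0 fell, with a median of 0.24. Of the 7 particular to polymerase II, 3 rose (42.9%) and 2 fell (28.6%), with a median of 0.19. Those shares were near the 40.1% rising and 22.8% falling among all tested genes. For polymerases I and III, 60.0% of the subunits rose, and differences between these counts were not tested. Of the 3 that rose in polymerase I, Polr1E lost its call in 7 of the 10 omissions of 1 library, which left 2. The polymerase I count of risen subunits became 1 with the replicate number as a block. It was also 1 without both libraries numbered 2, an omission chosen after seeing the data. The polymerase II count of risen subunits became 5 without mex>PGRP-LE replicate 1. The pair shared by polymerases I and III rose, and so did all 5 subunits shared by the 3 enzymes, with medians of 0.33 and 0.39. Median-of-ratios rescaling, which brings the median change of all genes near 0, left 19 subunits higher and 2 lower. Rescaling to the spike-ins left 16 higher and 1 lower. Under these 2 rescalings, risen subunits numbered 2 and 2 for polymerase I, 3 and 2 for polymerase II, and 6 and 4 for polymerase III. Of all 8722 tested genes, 2809 rose and 2684 fell under median-of-ratios rescaling. Under spike-in rescaling, 2582 of them rose and 1649 fell. The split over all genes moved more: 63.7% of calls were higher in the TPM as deposited and 51.1% after median-of-ratios rescaling.

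**Figure D1:**
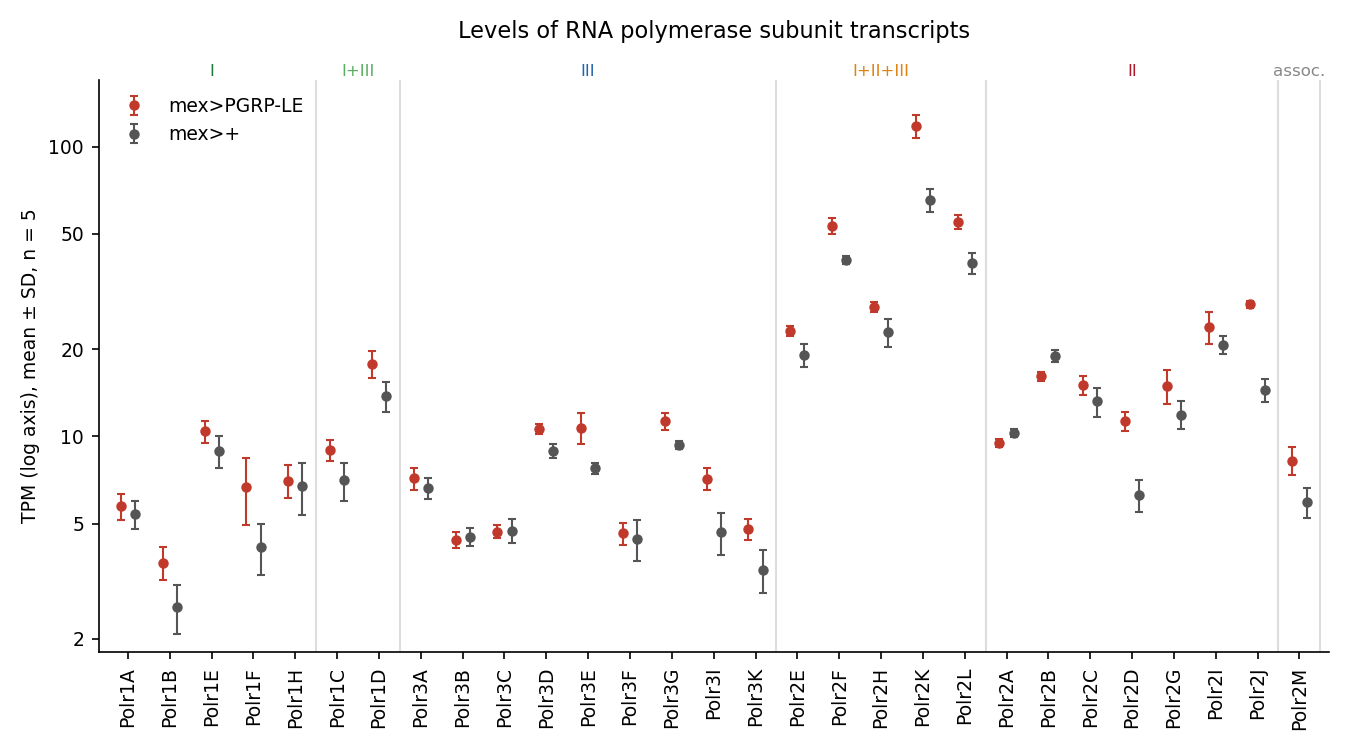
Mean TPM ± SD (log axis, n = 5 libraries per group) of 29 of the 30 subunit genes, grouped by the polymerase they belong to, with mex>PGRP-LE in red to the left of mex>+ in grey. Polr2K stands highest, at 118 and 65.4 TPM, and Polr1B lowest, at 3.66 and 2.58 TPM in mex>PGRP-LE and mex>+.

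Levels differed widely among the subunits. The 5 shared subunits were the most abundant as a class, with a summed level of 278 ± 11.1 TPM in mex>PGRP-LE and 188 ± 9.33 TPM in mex>+ midguts (SD, n = 5 each). Those particular to polymerase II summed to 119 ± 6.62 TPM in mex>PGRP-LE and 95.8 ± 4.89 TPM in mex>+, and those particular to polymerase III to 78.2 ± 4.17 TPM in mex>PGRP-LE and 63.5 ± 4.29 TPM in mex>+. Subunits particular to polymerase I had the lowest sum, 33.5 ± 3.76 TPM in mex>PGRP-LE and 27.7 ± 4.13 TPM in mex>+. Grouped by role, a grouping added after values had been seen, the 6 genes of the catalytic pairs summed to 46.6 ± 2.52 TPM in mex>PGRP-LE and 48.4 ± 2.74 TPM in mex>+, with 1 gene rising and 2 falling. The other 24 genes summed to 497 ± 18.7 TPM in mex>PGRP-LE and 353 ± 21.3 TPM in mex>+, with 19 rising and 0 falling. These counts stand beside 40.1% rising and 22.8% falling among all tested genes. Of tested genes with a main transcript of 3000 bases or more, as in the catalytic pairs, 27.3% rose and 28.9% fell. The difference between the 2 roles was not tested.

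The largest subunits form 1 side of the active site. Polr2A (FBgn0003277, X, 11562800 to 11570326, minus strand), which carries the C-terminal heptad repeats of polymerase II, stood at 9.21, 9.34, 9.91, 9.30 and 9.77 TPM in the mex>PGRP-LE libraries, against 10.4, 10.6, 10.1, 10.5 and 9.86 TPM in the mex>+ libraries. All 5 mex>PGRP-LE libraries lay below the mex>+ mean, although the groups overlapped by a single mex>+ library. Polr2A fell by 0.11 ± 0.04 on the log2 scale (limma adjusted p = 0.0498), a call at the threshold. It was kept when mex>PGRP-LE replicate 3 or mex>+ replicate 5 was left out and was lost in the other 8 omissions of 1 library, with limma adjusted p between 0.0389 and 0.102 over the 10. Polr1A (FBgn0019938, 2R, 14595611 to 14601216, minus strand) had 5.34, 5.22, 6.73, 5.69 and 5.65 TPM in mex>PGRP-LE, against 4.98, 4.93, 5.06, 6.30 and 5.65 TPM in mex>+ libraries. The groups overlapped, and the change of 0.08 ± 0.08 did not pass the test (limma adjusted p = 0.417). Under median-of-ratios rescaling it was -0.01. Polr3A (FBgn0030687, X, 15762956 to 15769514, plus strand) had 6.88, 7.22, 8.18, 6.58 and 6.95 TPM in mex>PGRP-LE, against 6.46, 6.19, 6.31, 7.57 and 6.70 TPM in mex>+ libraries, and did not pass either (0.09 ± 0.07, limma adjusted p = 0.246).

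The second largest subunits, which complete the active site, moved in different directions. Polr1B of polymerase I (FBgn0003278, 2L, 404285 to 407969, plus strand) had 4.09, 3.36, 4.09, 3.00 and 3.77 TPM in mex>PGRP-LE, against 2.40, 2.00, 2.43, 3.35 and 2.70 TPM in mex>+ libraries. It rose by 0.39 ± 0.10 (limma adjusted p = 0.00602), and 4 of the 5 mex>PGRP-LE libraries lay above every mex>+ library. Polr2B of polymerase II (FBgn0262955, 3R, 14125791 to 14130111, plus strand) had 15.8, 15.9, 17.1, 15.6 and 16.2 TPM in mex>PGRP-LE, against 18.1, 19.0, 18.7, 20.4 and 18.7 TPM in mex>+ libraries. The groups did not overlap, and Polr2B fell by 0.22 ± 0.05 (limma adjusted p = 0.00122). Polr3B of polymerase III (FBgn0004463, 2R, 12039041 to 12042623, plus strand) averaged 4.39 ± 0.286 TPM in mex>PGRP-LE and 4.50 ± 0.313 TPM in mex>+ libraries (SD, n = 5 each) and did not pass the test (-0.03 ± 0.06, limma adjusted p = 0.707).

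Ratios of 2 genes within a library do not depend on the scaling between libraries, and 6 such ratios of catalytic subunits were compared by two-sided exact permutation tests, adjusted over the 6. The ratio of Polr1B to Polr2B was 0.226 in mex>PGRP-LE and 0.134 in mex>+ libraries (geometric means), a log2 difference of 0.75 (exact p = 0.00794, the smallest that 5 against 5 allows, adjusted p = 0.0159). The ratio of Polr1B to Polr3B was 0.829 in mex>PGRP-LE and 0.566 in mex>+ libraries, a difference of 0.55 with the same exact p and adjusted p = 0.0159. Relative to the second subunits of both other enzymes, that of polymerase I was higher in each mex>PGRP-LE library than in any mex>+ library. Polr3B to Polr2B stood at 0.272 in mex>PGRP-LE and 0.237 in mex>+ libraries, a difference of 0.20 (exact permutation adjusted p = 0.0159). Both ratios to Polr2B depended on which Polr2B transcript was counted: with only the most abundant transcript of each gene, Polr3B to Polr2B turned to -0.36 (exact permutation adjusted p = 0.0238) and Polr1B to Polr2B shrank to 0.19 (exact permutation adjusted p = 0.133).

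Among the largest subunits, Polr3A to Polr2A was 0.752 in mex>PGRP-LE and 0.643 in mex>+ libraries, a log2 difference of 0.23 (exact p = 0.0238, adjusted p = 0.0357). That call held without mex>PGRP-LE replicate 4, mex>PGRP-LE replicate 5 or mex>+ replicate 4 and ended in the other 7 omissions of 1 library, with differences of 0.19 to 0.27 over the 10. Polr1A to Polr2A was 0.600 in mex>PGRP-LE and 0.520 in mex>+ libraries and did not pass (difference 0.21, exact p = 0.0714, adjusted p = 0.0857), except without mex>+ replicate 4 (0.26, exact permutation adjusted p = 0.0381). Polr1A to Polr3A was 0.799 in mex>PGRP-LE and 0.808 in mex>+ libraries (difference -0.02, exact p = 0.762). Polymerases I and III thus differed by the test in their second subunits and not in their largest ones, and whether the 2 pairs differ from each other was not tested.

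**Figure D2:**
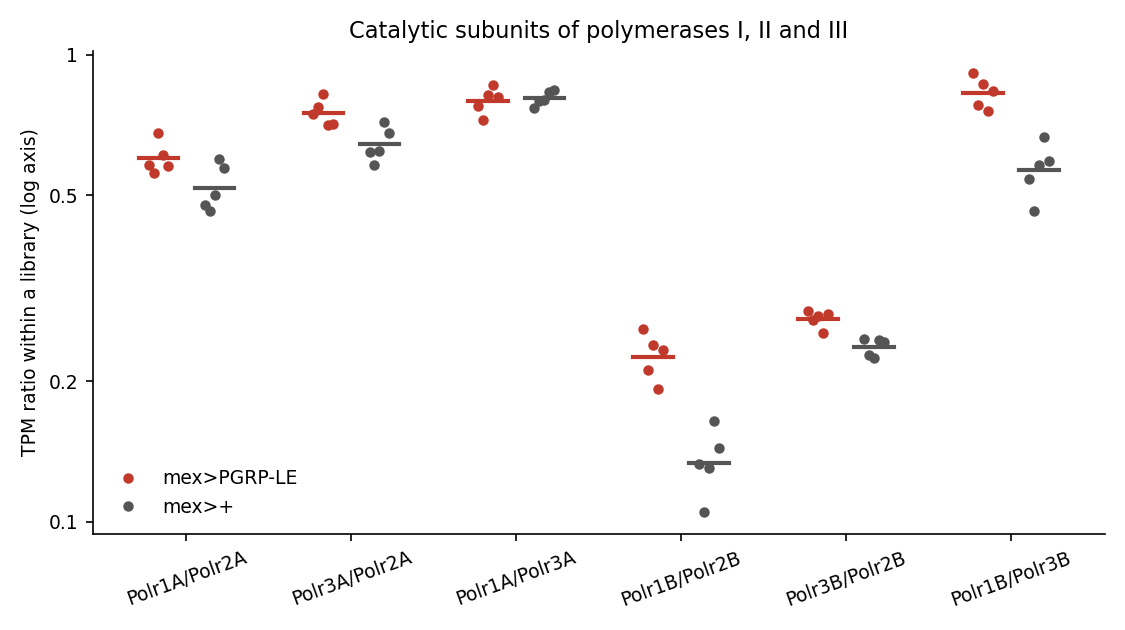
TPM ratios of catalytic subunits within each library (log axis), with mex>PGRP-LE in red to the left of mex>+ in grey; points are the 5 libraries of a group and bars their geometric means. The groups do not overlap for Polr1B/Polr2B (0.226 and 0.134), Polr3B/Polr2B (0.272 and 0.237) and Polr1B/Polr3B (0.829 and 0.566).

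By the deposited transcript levels, the fall of Polr2B lay in 1 of its 2 annotated transcripts, though the shift in their shares did not pass the adjusted test. Their annotated coding exons are identical and they share their start, and they differ in where the last exon ends, 14129826 for the shorter and 14130111 for the longer, 285 bases further. The longer one had 2.77, 2.77, 3.29, 3.04 and 3.80 TPM in mex>PGRP-LE, against 5.92, 11.0, 9.58, 7.97 and 7.83 TPM in mex>+ libraries. The shorter one had 13.0, 13.2, 13.8, 12.6 and 12.4 TPM in mex>PGRP-LE, against 12.1, 8.04, 9.09, 12.5 and 10.9 TPM in mex>+ libraries. The longer transcript was lower in every mex>PGRP-LE library than in any mex>+ library, while the shorter one overlapped between the groups. The longer form made up 19.4% ± 2.45 of Polr2B TPM in mex>PGRP-LE and 44.5% ± 9.94 in mex>+ libraries (SD, n = 5 each; exact permutation p = 0.00794, the smallest possible). Adjusted over the 9 subunit genes with several transcripts this became 0.0714, and a single gene at the smallest p cannot go lower. The 2 transcripts are told apart by the 285 bases alone, and the share of the longer one ran from 32.8 to 57.7% within mex>+ libraries. How reliably their reads were separated was not tested.

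**Figure D3:**
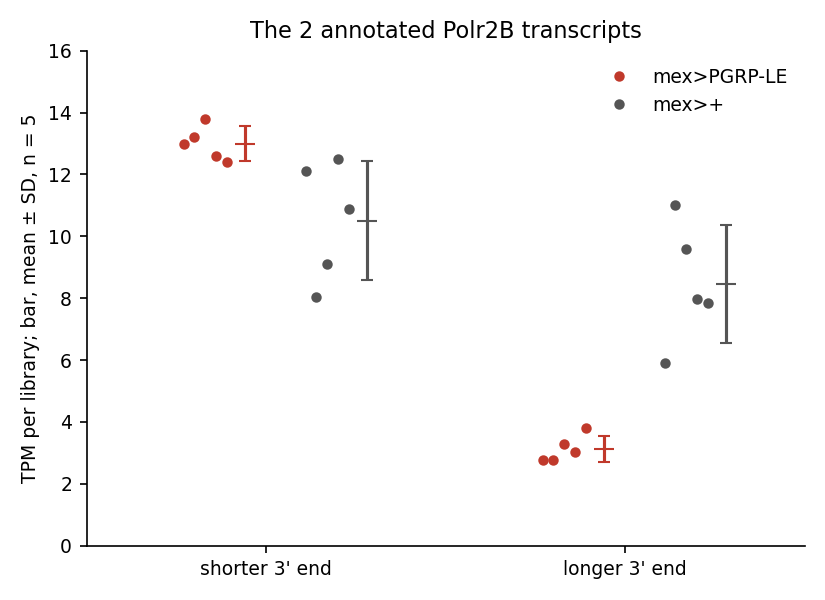
TPM of the shorter and the longer annotated Polr2B transcript in each library (mex>PGRP-LE in red, left; mex>+ in grey), with the mean ± SD of 5 libraries beside the points. The longer transcript averages 3.13 and 8.45 TPM in mex>PGRP-LE and mex>+ without overlap, and the shorter one 13.0 and 10.5 TPM with overlap.

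None of the 9 genes passed the adjusted threshold in this transcript comparison; 2 of them had an unadjusted exact permutation p below 0.05. For Polr3C and Polr3F the shares ran from 0 to 100% and from 18.8 to 100% within mex>PGRP-LE alone, so their transcripts were not separated reliably.

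The alpha-like dimer starts assembly of each enzyme. Polr2J (RPB11, FBgn0032634, 2L, 17409698 to 17410406, minus strand), 1 member of that dimer in polymerase II, had the largest change of all subunits. It stood at 28.6, 28.6, 27.5, 28.3 and 29.8 TPM in mex>PGRP-LE, against 15.5, 15.2, 14.1, 15.4 and 12.3 TPM in mex>+ libraries, a rise of 0.94 ± 0.06 (limma adjusted p = 1.3e-07). Its partner Polr2C (RPB3) averaged 15.0 ± 1.15 TPM in mex>PGRP-LE and 13.2 ± 1.5 TPM in mex>+ (SD, n = 5 each) and did not pass the test (0.18 ± 0.08, limma adjusted p = 0.0585). It passed without mex>PGRP-LE replicate 1, mex>+ replicate 4 or mex>+ replicate 5 (limma adjusted p = 0.0427, 0.047 and 0.0178). Within the dimer, every mex>PGRP-LE library thus lay far above the mex>+ libraries for Polr2J, and the groups overlapped for Polr2C. Polymerases I and III use Polr1C and Polr1D in this place. Polr1C had 8.69, 8.75, 9.25, 10 and 8.07 TPM in mex>PGRP-LE, against 7.65, 6.03, 5.93, 8.39 and 7.30 TPM in mex>+ libraries, a rise of 0.31 ± 0.09 (limma adjusted p = 0.00951). Polr1D had 16.9, 15.2, 18.7, 18.0 and 20.3 TPM in mex>PGRP-LE, against 14.6, 11.5, 12.7, 15.6 and 14.4 TPM in mex>+ libraries, a rise of 0.35 ± 0.09 (limma adjusted p = 0.00507). For each of the pair, 4 mex>PGRP-LE libraries lay above every mex>+ library.

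Stalk subunits bind nascent RNA and initiation factors. In polymerase II, Polr2D (RPB4, FBgn0263757, 3R, 18252843 to 18255487, minus strand) had 11.2, 12.8, 11.2, 10.3 and 11.3 TPM in mex>PGRP-LE, against 6.98, 5.68, 6.43, 7.09 and 5.29 TPM in mex>+ libraries, a rise of 0.76 ± 0.08 (limma adjusted p = 5.76e-06). The groups were well apart. All 722 bases of its single transcript are also exonic in Ada2a, a histone acetyltransferase adaptor gene at the same locus and on the same strand, so the level of each is uncertain. Ada2a also rose, by 0.43 ± 0.09 (limma adjusted p = 0.00126). The other stalk subunit of polymerase II, Polr2G (RPB7), rose by 0.29 ± 0.09 with overlapping groups, with limma adjusted p = 0.0144. That call ended under spike-in rescaling (0.058) and without both libraries numbered 2 (0.0547).

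In polymerase III, Polr3I had 6.93, 6.83, 8.24, 7.05 and 6.67 TPM in mex>PGRP-LE, against 3.99, 4.75, 4.56, 5.91 and 4.09 TPM in mex>+ libraries (0.53 ± 0.09, limma adjusted p = 2.88e-04). The groups did not overlap, and this was the largest change among the subunits particular to polymerase III. Polr3I shares 499 exonic bases with DENR on the opposite strand, which stood at 53.5 ± 1.83 TPM in mex>PGRP-LE and 40.8 ± 2.33 TPM in mex>+ (SD, n = 5 each). Whether kallisto was told the strand is not stated in the submitters' notes used here, so reads of the 2 genes may not have been told apart. In polymerase I, Polr1F had 6.71, 8.16, 8.65, 5.11 and 4.77 TPM in mex>PGRP-LE, against 4.23, 3.24, 3.38, 4.80 and 5.10 TPM in mex>+ libraries. It rose by 0.56 ± 0.16, the largest change among the subunits particular to that enzyme, but 3 mex>PGRP-LE libraries carried most of it. The call (limma adjusted p = 0.0101) ended without both libraries numbered 2 (0.0591) and with the replicate number as a block (0.0569).

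**Figure D4:**
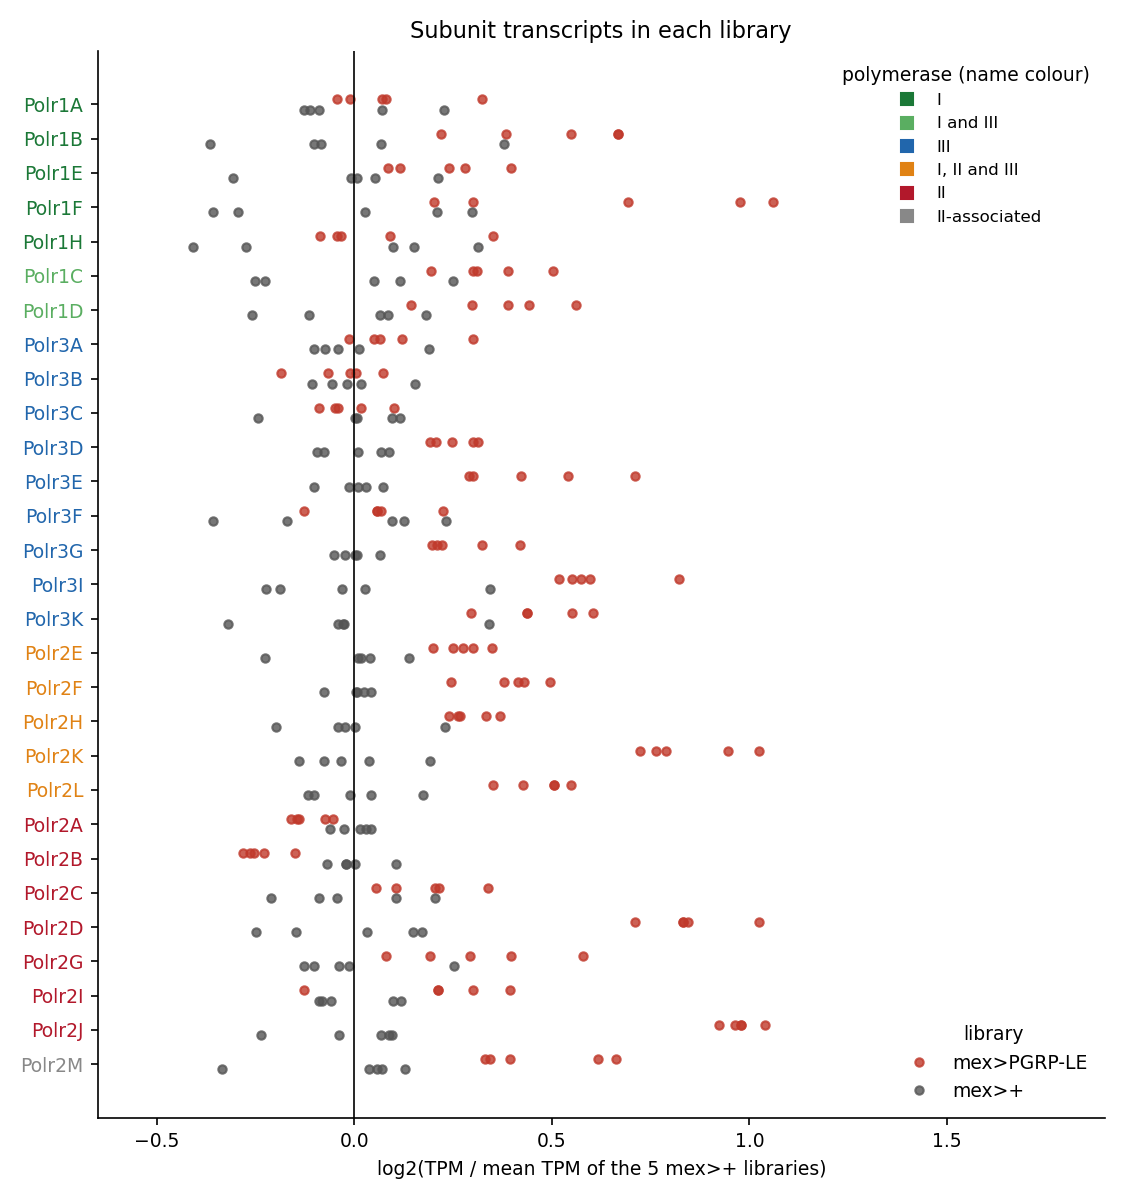
Each library's TPM of 29 of the subunit genes as log2 of its ratio to the mean of the 5 mex>+ libraries; red points are mex>PGRP-LE and grey points mex>+, and the colour of a name gives the polymerase. On average, the mex>PGRP-LE libraries of Polr2J, Polr2K and Polr2D lie farthest to the right, with no overlap between the groups. Polr2B is the only gene whose 5 mex>PGRP-LE libraries all lie left of every mex>+ library.

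Among the zinc-ribbon subunits, which take part in RNA cleavage in yeast, 1 of 3 passed the test, and differences between the enzymes were not tested. Polr3K of polymerase III averaged 4.80 ± 0.396 TPM in mex>PGRP-LE and 3.47 ± 0.582 TPM in mex>+ (SD, n = 5 each) and rose by 0.38 ± 0.09 (limma adjusted p = 0.00268). Its transcript has the same coordinates as that of Tcs1, and both genes carried equal TPM in every library, so the value belongs to a shared transcript split between them. Polr1H of polymerase I averaged 7.04 ± 0.922 TPM in mex>PGRP-LE and 6.73 ± 1.37 TPM in mex>+ and did not pass the test (limma adjusted p = 0.641). Polr2I of polymerase II averaged 23.9 ± 3.06 TPM in mex>PGRP-LE and 20.7 ± 1.49 TPM in mex>+ and did not pass either (limma adjusted p = 0.067). Polr2I passed when mex>PGRP-LE replicate 1 was left out (0.27, limma adjusted p = 0.0033).

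Polymerase III has subunits that resemble the polymerase II factors TFIIF and TFIIE. Of the TFIIF-like pair, Polr3D rose to 10.6 ± 0.4 TPM in mex>PGRP-LE, against 8.93 ± 0.504 TPM in mex>+, and Polr3E to 10.7 ± 1.32 TPM in mex>PGRP-LE, against 7.77 ± 0.348 TPM in mex>+ (SD, n = 5 each; limma adjusted p = 0.00175 and 4.48e-04). Neither overlapped between the groups. The TFIIF-like Polr1E of polymerase I rose by 0.21 ± 0.09 at the edge of the threshold (limma adjusted p = 0.0493). Its call ended under 14 of the 21 alternatives tried, 7 of them omissions of 1 library, and under median-of-ratios rescaling its change was 0.12. Among the TFIIE-like subunits, Polr3G rose to 11.3 ± 0.780 TPM in mex>PGRP-LE, against 9.34 ± 0.280 TPM in mex>+ (limma adjusted p = 0.00127). Polr3C averaged 4.69 ± 0.244 TPM in mex>PGRP-LE and 4.73 ± 0.449 TPM in mex>+, and Polr3F 4.63 ± 0.398 TPM in mex>PGRP-LE and 4.44 ± 0.714 TPM in mex>+, and neither passed the test (limma adjusted p = 0.939 and 0.615). Rescaling to the spike-ins ended the calls of Polr3D and Polr3G (limma adjusted p = 0.0807 and 0.0509).

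All 5 subunits common to the 3 enzymes rose, and none overlapped between the groups. Among all tested genes, 40.1% rose and 48.3% did not overlap in either direction. Of tested genes with a main transcript under 1500 bases, as these 5 have, 50.8% rose. Polr2K (RPB12, FBgn0262954, 2R, 15144968 to 15145519, minus strand) led with 108, 133, 113, 111 and 126 TPM in mex>PGRP-LE, against 63.8, 59.3, 67.1, 74.7 and 62.0 TPM in mex>+ libraries, a rise of 0.84 ± 0.07 (limma adjusted p = 1.37e-06). Polr2L (RPB10) had 56.4, 56.4, 53.4, 58.1 and 50.7 TPM in mex>PGRP-LE, against 44.8, 39.4, 40.9, 37.0 and 36.6 TPM in mex>+ libraries, a rise of 0.46 ± 0.06 (limma adjusted p = 4.02e-05). Polr2F (RPB6) rose by 0.39 ± 0.05, Polr2H (RPB8) by 0.29 ± 0.07 and Polr2E (RPB5) by 0.27 ± 0.06, with limma adjusted p = 3.34e-05, 0.00265 and 0.00245. Each of these 5 calls held under every alternative setting. Polr2M, which in mammals (as GDOWN1) binds polymerase II and hinders TFIIF, rose by 0.42 ± 0.09 without overlap (limma adjusted p = 0.00137).

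The split between catalytic and smaller subunits went together with transcript length. Of the 21 subunit genes whose main transcript was shorter than 1500 bases, 17 rose and 0 fell, whereas 50.8% of all 3440 tested genes that short rose and 17.8% fell. Of the 6 with 3000 bases or more, which are the catalytic subunits, 1 rose and 2 fell, whereas 27.3% of all 2082 tested genes that long rose and 28.9% fell. Over all tested genes the median log2 change was 0.27 under 750 bases, 0.18 from there to under 1500, 0.07 from there to under 3000, and -0.01 at 3000 bases or more. Across the 30 subunits, Spearman's rho between length and change was -0.50, and across the 8722 tested genes it was -0.21. These are descriptions across genes, which share the same 10 libraries and are not independent replicates. The part of transcript length in the subunit changes was not tested.

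**Figure D5:**
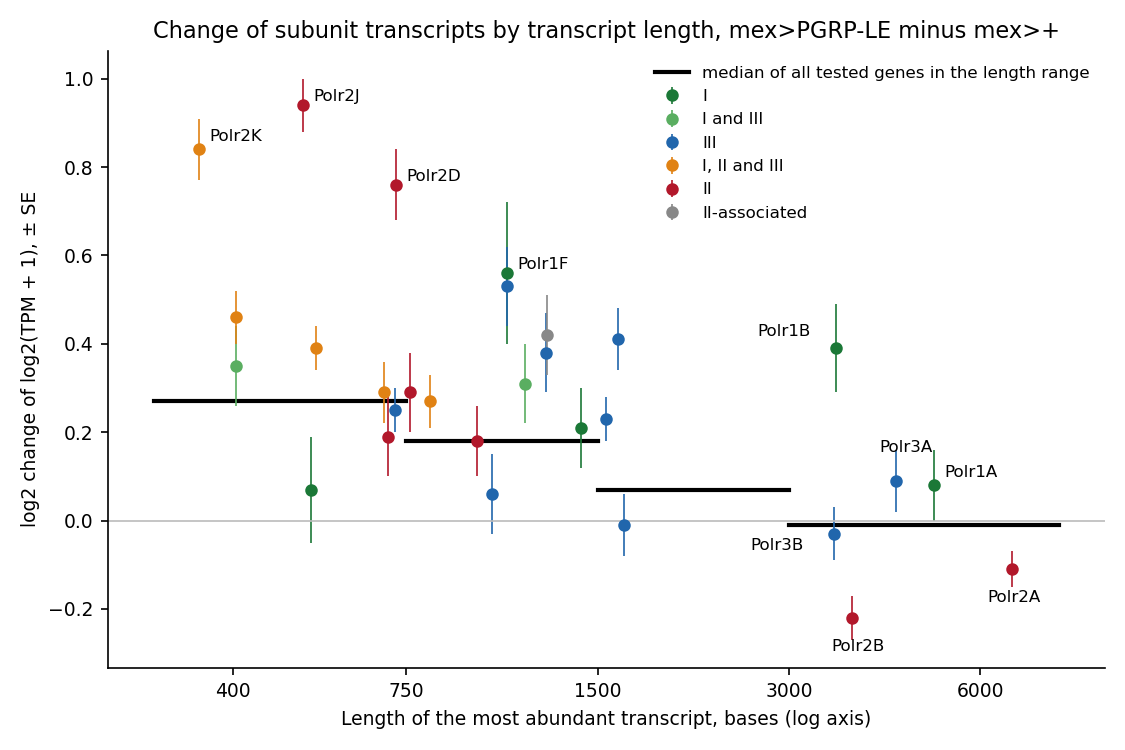
Log2 change (mex>PGRP-LE minus mex>+, ± SE) of 29 of the subunit genes against the length of its most abundant transcript (log axis), coloured by polymerase; black lines are the medians of all tested genes in 4 length ranges, the last of which has no upper end. The medians descend from 0.27 to -0.01 with length, and Polr2J, Polr2K and Polr2D lie farthest above them.

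Within each group, many subunits stood highest or lowest in the same library, a ranking that was not made over all tested genes. Of the mex>+ libraries, replicate 4 was the highest of its group for 22 of the 30 subunits and replicate 2 the lowest for 16, with summed levels of 439 and 375 TPM. Of the mex>PGRP-LE libraries, replicate 3 was the highest for 18, with a summed level of 564 TPM. Without mex>PGRP-LE replicate 3 and mex>+ replicate 4, an alternative chosen after seeing the data, 20 subunits rose and 1 fell. Without both libraries numbered 2, also chosen after seeing the data, 17 rose and 1 fell.

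Tested markers of dividing and progenitor cells rose as well. Of 10 listed progenitor markers, 9 were tested and all 9 rose, and the list summed to 86.3 to 104 TPM in mex>PGRP-LE and 25.1 to 32.9 TPM in mex>+ libraries. esg, a transcription factor of gut progenitors, averaged 21.7 ± 1.39 TPM in mex>PGRP-LE and 8.40 ± 0.653 TPM in mex>+ libraries (SD, n = 5 each). All 10 tested of 14 cell division genes rose, RnrS of ribonucleotide reductase being the most abundant, and their list summed to 87.6 to 106 TPM in mex>PGRP-LE and 20.3 to 29.1 TPM in mex>+ libraries. Among all tested genes 40.1% rose and 22.8% fell. The filter kept some of these markers through mex>PGRP-LE alone, so the marker counts are descriptions. The part of dividing and progenitor cells in the subunit changes was not tested.

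Of 10 enterocyte markers, which check the tissue, 6 rose and 4 fell. Counts in this and the following marker lists are read against 40.1% rising and 22.8% falling among all tested genes. Enterocyte markers summed to 23900 to 28100 TPM in mex>PGRP-LE and 28200 to 32000 TPM in mex>+ libraries, mostly from alphaTry. Enteroendocrine markers summed to 719 to 800 TPM in mex>PGRP-LE and 696 to 796 TPM in mex>+ libraries (2 rose and 1 fell of 10; Orcokinin was the most abundant), and visceral muscle markers to 2550 to 3220 TPM in mex>PGRP-LE and 2620 to 3270 TPM in mex>+ libraries (0 rose and 4 fell of 10; Act57B was the most abundant). Malpighian tubule markers, with Irk2 the most abundant, summed to 286 to 369 TPM in mex>PGRP-LE and 314 to 412 TPM in mex>+ libraries (0 rose and 1 fell of 5). Fat body markers summed to 292 to 440 TPM in mex>PGRP-LE and 358 to 442 TPM in mex>+ libraries (0 rose and 0 fell of 2 tested). Nearly all of that sum came from the gene to. The other one tested, apolpp, averaged 4.77 ± 3.61 TPM in mex>PGRP-LE and 7.10 ± 2.39 TPM in mex>+, and the untested ones averaged below 1 TPM. Haemocyte markers summed to 2.74 to 4.38 TPM in mex>PGRP-LE and 4.95 to 7.42 TPM in mex>+ libraries without overlap, mostly from srp. The only one tested, srp fell by 0.77 ± 0.12 (limma adjusted p = 1.17e-04). Among the untested ones, NimC1 averaged 0.492 TPM in mex>PGRP-LE and 0.0958 TPM in mex>+ libraries. Sr-CI averaged 0.136 TPM in mex>PGRP-LE and 0.0742 TPM in mex>+ libraries. He was also slightly higher in mex>PGRP-LE, while Hml and eater were lower. Neuron markers summed to 4.45 to 5.73 TPM in mex>PGRP-LE and 6.01 to 7.21 TPM in mex>+ libraries, also without overlap; 1 rose and 1 fell of 3 tested, nSyb by 0.58 ± 0.08 (limma adjusted p = 6.87e-05). The 10 testis markers reached at most 0.313 TPM in sum, with Mst84Da, Mst87F and ProtA at 0 in every library.

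Many of the factors that work with the polymerases rose as well. Of 18 general initiation factors of polymerase II, 13 rose and 0 fell (median 0.32), of 29 Mediator subunits 17 rose and 0 fell (median 0.20), and of 17 elongation factors 9 rose and 2 fell (median 0.15). Of 5 polymerase I initiation factors 1 rose, and of 7 polymerase III factors 1 rose, with medians of 0.11 and 0.05 and 0 falling in either list. These counts are read against 40.1% rising and 22.8% falling among all genes, and the difference between the lists was not tested. With the assembly, ribosome biogenesis and growth genes given further on, 59 of 108 tested genes rose and 3 fell. Under median-of-ratios rescaling 44 rose and 7 fell, while of all 8722 tested genes 2809 rose and 2684 fell. Under spike-in rescaling 41 rose and 1 fell, while of all tested genes 2582 rose and 1649 fell.

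For polymerase I, TAF1B, a subunit of the promoter selectivity factor, rose to 3.41 ± 0.388 TPM in mex>PGRP-LE, against 1.88 ± 0.306 TPM in mex>+ (SD, n = 5 each; limma adjusted p = 7.99e-05). Tif-IA, which recruits polymerase I to the ribosomal DNA, averaged 23.4 ± 2.07 TPM in mex>PGRP-LE and 21.4 ± 1.39 TPM in mex>+ and did not pass (limma adjusted p = 0.128). For polymerase III the gene that passed was Maf1, the repressor of that enzyme, at 64.1 ± 2.97 TPM in mex>PGRP-LE and 51.2 ± 2.87 TPM in mex>+ (limma adjusted p = 1.61e-04). Brf, a subunit of its initiation factor TFIIIB, stood at 6.63 ± 0.831 TPM in mex>PGRP-LE and 5.97 ± 0.670 TPM in mex>+ (limma adjusted p = 0.228).

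For polymerase II, the small TFIIA subunit TfIIA-S rose to 154 ± 9.81 TPM in mex>PGRP-LE, against 80.7 ± 5.36 TPM in mex>+ (limma adjusted p = 1.03e-07), and Tfb5 of TFIIH rose by 0.43 ± 0.04. Of the elongation factors, spt4, a partner of Spt5 on the elongating enzyme, rose by 0.61 ± 0.07 and Cdk9, the kinase of P-TEFb, by 0.37 ± 0.07. The 2 that fell, named after their values were seen, were Spt6 and lilli, by 0.13 and 0.20 on the log2 scale. MED10 and MED22 of Mediator rose by 0.94 ± 0.07 and 0.79 ± 0.11.

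Of 22 ribosome biogenesis genes, whose products process the RNA made by polymerase I, 14 rose and 1 fell (median 0.40). Fib, the fibrillarin methyltransferase, rose to 31.8 ± 0.721 TPM in mex>PGRP-LE, against 16.2 ± 2.41 TPM in mex>+ (SD, n = 5 each; limma adjusted p = 9.63e-07), whereas Non1, a nucleolar GTPase, fell to 128 ± 8.25 TPM in mex>PGRP-LE, against 197 ± 12.3 TPM in mex>+ (limma adjusted p = 2.21e-06). Of 5 matched genes of polymerase assembly, 3 rose and 0 fell, among them the AAA ATPases rept and pont of the R2TP complex, by 0.54 ± 0.08 and 0.34 ± 0.07. Of 5 growth regulators 1 rose: brat, a translational repressor that restrains growth, by 0.43 ± 0.06. Myc, which drives ribosome production in flies, averaged 13.4 ± 0.893 TPM in mex>PGRP-LE and 14.7 ± 0.846 TPM in mex>+ and did not pass the test (-0.13 ± 0.06, limma adjusted p = 0.0698).

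The authors' deposited table of the same comparison lists all 30 subunits, 26 with a log2 fold change above 0 and 4 below it, while 57.3% of all 10682 genes in that table are above 0. In the authors' deposited table Polr2J stands at 0.96, Polr2K at 0.86 and Polr2D at 0.83, and Polr2B at -0.28. For Polr2A and Polr1E the authors' deposited table gives p-values of 0.12 and 0.156.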

How the data were processed

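The deposited expression table holds TPM per transcript in 10 libraries, 5 per group, with the same total in each column over 31181 rows, 92 of them spike-ins. Per the submitters' processing notes, FastQC, Trim Galore, kallisto and edgeR were used with BDGP6, and versions, settings and strand handling are not given in the sources used here. Libraries were stranded, per the labels' protocols. The second table deposited by the authors gives, for each gene, their log2 fold change with its p-value. Its label names RUVSeq, so those values may not come from edgeR alone. Across 8681 shared genes its fold changes had a slope of 1.15 on those computed here, which sets their base and direction.

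Transcripts were joined to genes with Ensembl release 115 of BDGP6.54 (31048 of 31089 matched) and summed. Genes that reached 1 TPM in 5 or more libraries were tested as log2(TPM + 1), a scale that understates changes of low genes, with limma 3.58.1 in R 4.3.3 (eBayes with trend and robust, two-sided, Benjamini-Hochberg over 8722 genes). Ratios and transcript shares, 1 value a library, went into two-sided exact permutation tests (SciPy 1.17.1). The limma fit was checked on simulated data with known changes, and the permutation test on a fully separated case of 5 against 5. The length of a gene is that of its most abundant transcript.

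All 30 members enter the counts, medians and sums, and 29 were named or plotted; the other is not reported here. For each factor list the 2 genes with the smallest p were named, and for each marker list the most abundant tested gene. Members and lists were chosen with earlier results of these data known, and the grouping by structural role and the transcript comparison were added after values had been seen. Of the listed genes, 6 had no matching symbol. Whether replicates came from separate crosses is not stated, so p-values measure the spread between these samples.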

Additional observations from a re-analysis of the deposited data

Results flagged for a closer look

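Among 90 groups of 5 values examined (30 subunit levels, 6 ratios and 9 transcript shares in each group), 4 held a library far from the others, and chance alone flags about 1 in 20 such groups. Polr2G stood at 14.2 TPM in mex>+ replicate 4, against 10.9 to 11.8 TPM in the other mex>+ libraries. Polr2M stood at 4.70 TPM in mex>+ replicate 2, against 6.09 to 6.48 TPM in the others. Polr3I stood at 8.24 TPM in mex>PGRP-LE replicate 3, against 6.67 to 7.05 TPM in the others. The longest Polr2E transcript made up 9.92% of that gene's TPM in mex>PGRP-LE replicate 4, against 2.04 to 4.03% in the others. The calls of Polr2G, Polr2M and Polr3I were kept in all 10 omissions of a single library.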

How the results depend on the processing

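Of the 22 called subunits, 16 kept their call and direction in every alternative that tested them; Polr1E, Polr1F, Polr2A, Polr2G, Polr3D and Polr3G lost the call in at least 1. Subunits that rose numbered 16 (spike-in rescaling) to 22 (without mex>PGRP-LE replicate 1), against 20. The 2 that fell became 1 under spike-in rescaling, with the replicate block, without mex>PGRP-LE replicate 3 and mex>+ replicate 4, and without replicate 2 of both groups, and 1 to 2 in single omissions. The 3 risen subunits particular to polymerase I became 1 with the replicate block and without replicate 2 of both groups. They became 2 without the filter, with a mean of at least 5 TPM (4 tested) and in limma without trend and robust. Median-of-ratios rescaling, spike-in rescaling and quantile normalization also left 2, and single omissions left 2 to 3. The 3 of polymerase II became 3 to 5 in single omissions. Both double omissions were chosen after seeing the data.

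Whether replicate numbers pair the samples was not settled. Same-numbered libraries had correlations of their deviations from the group means of -0.173, 0.57, -0.233, 0.065 and -0.056, highest for replicate 2. With the number as a block, 18 subunits rose and 1 fell, and 3173 of all genes rose and 1803 fell, against 3499 and 1991 without it. Polr1E, Polr1F and Polr2A then lost their calls (limma adjusted p = 0.0654, 0.0569 and 0.161).

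The 3 listed transcription genes that fell became 7 under median-of-ratios rescaling, 6 under quantile normalization and 1 under spike-in rescaling. Among subunits that passed no test, the log2 change turned to -0.01 for Polr1A and to -0.02 for Polr1H and Polr3F under median-of-ratios rescaling. Under quantile normalization Polr1H and Polr3F stood at 0.00. Without replicate 2 of both groups Polr3F stood at -0.01, and without mex>PGRP-LE replicate 3 and mex>+ replicate 4 Polr3C at 0.01. Single omissions gave -0.01 to 0.14 for Polr1H, -0.05 to 0.00 for Polr3B, -0.06 to 0.02 for Polr3C and -0.01 to 0.11 for Polr3F. Single omissions gave log2 differences of 0.16 to 0.26 for Polr1A/Polr2A, 0.19 to 0.27 for Polr3A/Polr2A and -0.05 to 0.02 for Polr1A/Polr3A. With the most abundant transcript alone, Polr1B/Polr2B was 0.19 and Polr3B/Polr2B -0.36, the longer Polr2B transcript being left out. For the other changes the cause was not tested. TPM keeps no depth, so the counting error of weak subunits is unknown.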

Other observations

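Within Mediator, the complex that links transcription factors to polymerase II, MED10 and MED31 of the middle module and MED22 of the head rose. MED10, MED22 and MED31 stood at 86.3 ± 4.82, 34.9 ± 4.93 and 34.2 ± 3.17 TPM in mex>PGRP-LE, against 44.7 ± 4.17, 19.7 ± 2.48 and 23.5 ± 2.21 TPM in mex>+ libraries (SD, n = 5 each). Of the kinase module, CycC rose by 0.32 ± 0.06 (limma adjusted p = 4.66e-04), while Cdk8, kto and skd did not pass the test (changes of 0.16, 0.09 and -0.10). These genes beyond the 2 with the smallest p were named after their values were seen.

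The list of 22 ribosome biogenesis genes, of which 14 rose, 1 fell and 7 did not pass, held several proteins of small nucleolar ribonucleoproteins. nop5 and Nop56, which join Fib in box C/D particles, rose by 0.67 ± 0.09 and 0.62 ± 0.10, and Nop60B and NHP2 of the box H/ACA particles by 0.71 ± 0.11 and 0.67 ± 0.09. The ribosome assembly factor eIF6 rose by 0.90 ± 0.12 (limma adjusted p = 5.14e-05). All were named after their values were seen.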
